A study of Mus musculus with 20 samples.

Results

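Neutral lipid stored in liver cells is taken apart stepwise by a small set of lipases and their regulators, and the RNA of these genes was followed in livers of ob/ob mice. The genes were chosen by name, with earlier results of these data known. They were 6 patatin-like phospholipase domain genes (Pnpla2, Pnpla3, Pnpla5, Pnpla6, Pnpla7 and Pnpla8), the ATGL co-activator Abhd5, the ATGL inhibitor G0s2, the hormone-sensitive lipase gene Lipe and the monoacylglycerol lipase gene Mgll. Of these 10 genes, 9 were assigned 1 probe set each and 8 were bright enough to be tested, among 19505 genes with a probe set and 11844 genes tested. Pnpla8, which encodes a membrane-bound phospholipase of mitochondria and peroxisomes, is not analysed here. Pnpla5 was dim on every array and is given by its values.

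The livers came from 20 male ob/ob mice, which lack functional leptin and become obese with fatty livers, and every group, the controls included, carried this genotype. There were 4 groups of 5 mice: PM2.5 (fine airborne particles, with a chamber stay of 6 hours per day), metformin (a glucose-lowering biguanide, given in the drinking water), both treatments at once (the combined group), and filtered air. Exposure lasted 2 weeks, no age, dose, litter or batch is stated in the labels, and the air breathed by the metformin group is not named. The labels do not say whether the other mice spent time in a chamber, so particles cannot be told apart from a chamber effect. Each value is the log2 signal of 1 probe set on 1 array from 1 mouse, and mice are numbered within their group in the order of deposition, so equal numbers pair no mice.

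In the textbook order of lipolysis, ATGL (the product of Pnpla2) takes the first fatty acid off triacylglycerol on the lipid droplet, hormone-sensitive lipase cleaves diacylglycerol, and monoacylglycerol lipase releases the last fatty acid. ABHD5 activates ATGL when perilipins let it go, and G0S2 binds ATGL and blocks it. PNPLA3 sits on the same droplets, its gene is switched on by feeding, insulin and the lipogenic factor SREBP-1c, and a common human variant of it is linked to fatty liver. PNPLA6 and PNPLA7 are lysophospholipases of the endoplasmic reticulum rather than triacylglycerol lipases.

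Hepatocyte markers were bright in every group. Albumin (Alb) lay between 18.69 and 19.03 on the log2 scale, and 8 of 8 hepatocyte markers lay above the 95th percentile of the negative-control probe sets, which mark the background of an array. The median over non-control probe sets was 4.77 to 4.92 per array, and each array correlated with the others of its group at a mean r of 0.981 to 0.993 across genes. The negative-control median of an array lay between 4.34 and 4.59 on 18 arrays and was 4.79 and 4.69 on those of combined mice 2 and 4, so results on the combined group are given with and without these arrays where that ends a call. RNA came from liver tissue of mixed cells, so fewer cells of a type and less RNA per cell cannot be told apart.

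Differences were estimated with limma in 1 model of the 4 group means, and the words rose, fell and passed are kept for an adjusted p under 0.05 over the 11844 genes. A ± gives the standard error of the log2 difference it follows, or the SD where so marked, and a log2 difference of 1 is a doubling of signal. The 3 comparisons against filtered air share the same 5 control arrays, and the other comparisons also share arrays with them. Signals of different genes are not compared with one another, because probe sets differ in their brightness.

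**Figure D1:**
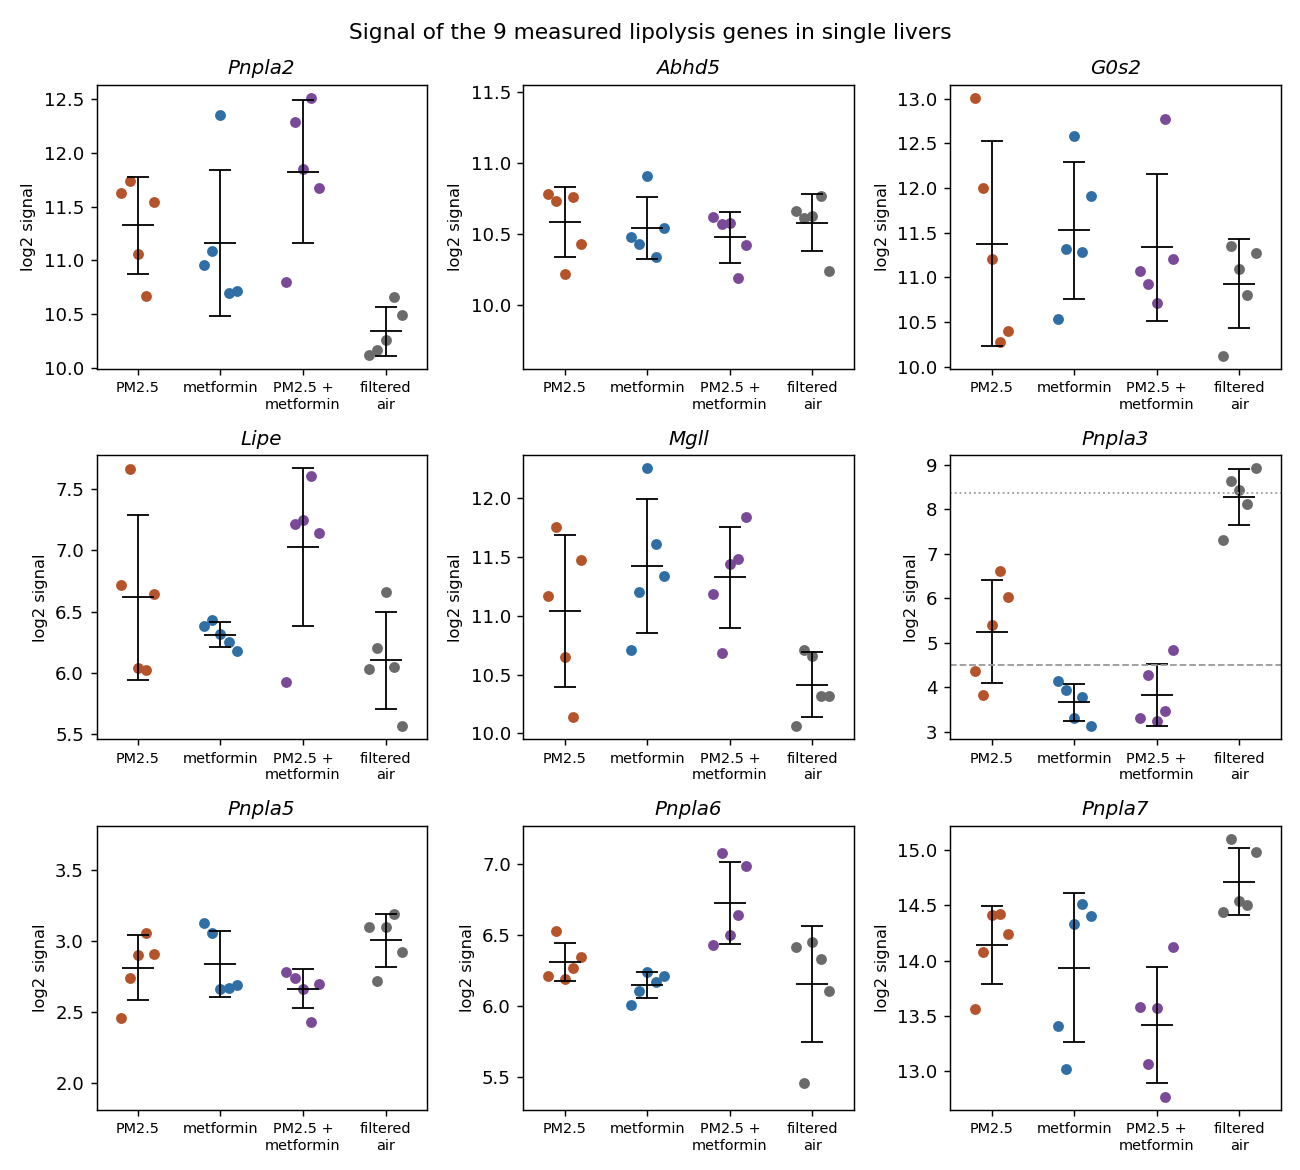
Log2 signal of the 9 measured genes in each of 20 livers, with the groups from left to right PM2.5, metformin, PM2.5 with metformin and filtered air, and its own vertical axis in each panel. Coloured points are mice, black bars are group means with SD (n = 5), and in the Pnpla3 panel the dashed and dotted lines are the mean negative-control median (4.49) and 95th percentile (8.36). All 5 filtered-air mice lie above every other mouse for Pnpla3, and all 5 lie below every other mouse for Pnpla2.

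Pnpla3 was the member with the greatest difference from filtered air. Its log2 signal was 4.35, 3.83, 5.40, 6.62 and 6.02 in the PM2.5 mice, 4.13, 3.94, 3.31, 3.78 and 3.12 in the metformin mice and 3.30, 4.26, 3.23, 3.46 and 4.83 in the combined mice, against 7.30, 8.63, 8.43, 8.11 and 8.92 in the filtered-air mice. The 15 treated mice all lay below the lowest filtered-air mouse. The metformin and combined groups overlapped each other, and PM2.5 mice 1 and 2 lay within the range of those groups while PM2.5 mice 3, 4 and 5 lay above it.

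Pnpla3 averaged 5.24 ± 1.15 with PM2.5 and 8.28 ± 0.62 in filtered air (SD, n = 5 each), a fall by 3.03 ± 0.43 on the log2 scale (adjusted p = 0.000785), or 8.18-fold lower. With metformin alone it averaged 3.65 ± 0.43 (SD, n = 5), and the difference from filtered air was -4.62 ± 0.43 (adjusted p = 2.16e-06). In the combined group it averaged 3.82 ± 0.70 (SD, n = 5), and the difference from filtered air was -4.46 ± 0.43 (adjusted p = 1.66e-06). Each of these group means was under the negative-control median averaged over its arrays, 4.50 in the metformin group and 4.59 in the combined group. The sizes of these differences were therefore not measured. With each signal raised to the negative-control median of its array, mean Pnpla3 was 13.7-fold lower with metformin and 12.2-fold lower in the combined group than in filtered air. These values are given without sampling error. Raising signals in this way gave 7.39-fold lower for PM2.5, where 3 of 5 mice were above the negative-control median. Of all 20 Pnpla3 signals, 3 lay above the negative-control 95th percentile of their array, all of them in filtered air.

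Pnpla3 also fell in the combined group relative to PM2.5, by 1.43 ± 0.43 (adjusted p = 0.0349), and 3 of 5 combined mice lay below all PM2.5 mice. This call rests on few mice. It was lost when any of PM2.5 mice 3, 4 or 5 or combined mice 1, 3 or 4 was left out (adjusted p up to 0.111), when combined arrays 2 and 4 were left out together (adjusted p = 0.159) and with the negative-control median as a covariate (adjusted p = 0.308). With signals raised to the negative-control median the difference was -0.72. Between the combined and metformin groups Pnpla3 differed by 0.16 ± 0.43 (95% interval -0.73 to 1.05, adjusted p = 0.841), with both groups at background.

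The interaction asks whether the metformin difference under PM2.5 differed from that without PM2.5. For Pnpla3 it was 3.19 ± 0.61 (adjusted p = 0.03), the metformin difference being -1.43 under PM2.5 and -4.62 without it. Of 8 tested members it was the 1 with such a call, and across all tested genes 0.186% passed in either direction, 0.16% higher and 0.0253% lower. Since both metformin-treated groups lay at background, the size of the interaction was not measured. With both at background, it largely restates the difference between PM2.5 and filtered air (-3.03). It therefore cannot show whether metformin acted differently under PM2.5. The call was lost without filtered-air mouse 2, 3 or 5, metformin mouse 2, 3 or 5 or PM2.5 mouse 1 or 2 (adjusted p up to 0.0799). It was also lost without combined arrays 2 and 4 (adjusted p = 0.0698).

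The promoters of the 3 members with the lowest adjusted p are shown, because these genes moved in opposite directions in the combined group. Sequences are from RefSeq on GRCm38.p6, plus strand, 5′ to 3′, from the 250 bases before an annotated start. Capitals mark a cAMP response element (TGACGTCA), an E-box (CACGTG) or a CCAAT box on either strand, and bases from the most upstream RefSeq start of the gene onward are left out, apart from the last 2 bases of the cAMP response element in Pnpla3.
Pnpla3, chr15:84167566-84167777: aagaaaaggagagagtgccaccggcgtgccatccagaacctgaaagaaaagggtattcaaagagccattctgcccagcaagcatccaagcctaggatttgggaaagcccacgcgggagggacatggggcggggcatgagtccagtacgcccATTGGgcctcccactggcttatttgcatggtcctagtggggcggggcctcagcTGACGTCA
Pnpla2, chr7:141454938-141455187: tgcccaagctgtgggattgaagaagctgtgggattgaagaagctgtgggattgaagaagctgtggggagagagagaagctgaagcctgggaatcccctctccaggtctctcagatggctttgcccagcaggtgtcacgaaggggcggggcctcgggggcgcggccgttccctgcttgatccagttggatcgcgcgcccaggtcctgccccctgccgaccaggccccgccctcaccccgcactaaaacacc
Pnpla7, chr2:24975783-24975989: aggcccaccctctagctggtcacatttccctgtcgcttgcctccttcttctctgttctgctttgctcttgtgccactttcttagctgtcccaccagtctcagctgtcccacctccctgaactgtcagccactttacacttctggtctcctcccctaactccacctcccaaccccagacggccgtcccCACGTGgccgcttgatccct

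10 motifs were searched on both strands of the 250 bases, and their share is given over 32851 RefSeq windows of the same length. The Pnpla3 window held the full cAMP response element at position -46 from its annotated start, a sequence found in 1.55% of windows, and a CCAAT box at -99 (33.8% of windows). Another RefSeq start of Pnpla3 lies 40 bases upstream of that start, within this element. The Pnpla7 window held an E-box at -63 (6.02% of windows). The Pnpla2 window held only GC boxes (GGGCGG, 32.7% of windows), printed in lower case, and the Pnpla3 window held GC boxes as well. None of the 3 windows held the sterol regulatory element searched (TCACNCCAC, 1.05% of windows), the forkhead element (GTAAACA, 3.17%), the nuclear receptor half-site (AGGTCA, 14%) or the TATA box (TATAAA, 12.4%). The glucocorticoid receptor half-site (TGTTCT, 16.1% of windows) occurred in the Pnpla7 window, and the cAMP half-site (TGACG, 17.8%) occurred in the Pnpla3 window as part of the full element. A match describes these letters and is no evidence of binding.

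The ATGL gene Pnpla2 was higher in treated mice than in filtered air, opposite to Pnpla3. Its log2 signal was 11.63, 11.74, 11.06, 10.67 and 11.54 with PM2.5, 10.96, 11.09, 12.35, 10.70 and 10.72 with metformin and 10.80, 12.29, 11.85, 12.51 and 11.67 in the combined mice, against 10.12, 10.17, 10.26, 10.66 and 10.49 in filtered air. All 15 treated mice lay above the highest filtered-air mouse, the closest being 10.67 with PM2.5 against 10.66 in filtered air, and the 3 treated groups overlapped one another.

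Pnpla2 averaged 11.83 ± 0.66 in the combined group and 10.34 ± 0.23 in filtered air (SD, n = 5 each), a rise of 1.48 ± 0.31 (2.80-fold, adjusted p = 0.00091). It kept this call in all 20 fits that left out 1 mouse (difference 1.31 to 1.74) and without combined arrays 2 and 4, and lost it with the negative-control median as a covariate (difference 0.94, adjusted p = 0.106). With PM2.5 alone the difference was 0.99 ± 0.31 (1.98-fold, 95% interval 0.35 to 1.62), which did not pass (adjusted p = 0.0613). That difference passed in 6 refits, among them the fit of the PM2.5 and filtered-air arrays alone (adjusted p = 0.0126). With metformin alone it was 0.82 ± 0.31 (adjusted p = 0.146), and it was 0.52 without metformin mouse 3, whose signal of 12.35 stood far above its group. The combined group differed from PM2.5 by 0.50 ± 0.31 (adjusted p = 0.315) and from metformin by 0.66 ± 0.31 (adjusted p = 0.143), and the difference from metformin passed without combined mouse 1 (0.92, adjusted p = 0.0308) or without metformin mouse 3 (0.96, adjusted p = 0.0222).

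Abhd5, which encodes the co-activator of ATGL, varied little. It averaged 10.58 ± 0.25 with PM2.5, 10.54 ± 0.22 with metformin and 10.48 ± 0.18 in the combined group, against 10.58 ± 0.20 in filtered air (SD, n = 5 each). All 20 mice lay between 10.19 and 10.91, and each group overlapped the others. None of its 6 differences passed, and the 95% interval for the combined group against filtered air ran from -0.41 to 0.20, a ratio of 0.755 to 1.15.

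G0s2, which encodes the inhibitor of ATGL, varied widely within groups. Its signal was 13.01, 12.00, 11.21, 10.27 and 10.40 with PM2.5, 10.53, 11.32, 12.58, 11.28 and 11.91 with metformin and 11.07, 10.93, 10.71, 12.77 and 11.21 in the combined mice, against 10.12, 11.35, 11.09, 10.80 and 11.27 in filtered air. The groups overlapped throughout, and the PM2.5 mice alone spanned 2.75 on the log2 scale. The difference from filtered air was 0.45 ± 0.47 with PM2.5 (adjusted p = 0.606), 0.60 ± 0.47 with metformin (adjusted p = 0.527) and 0.41 ± 0.47 in the combined group (adjusted p = 0.532). The interval of the combined difference, -0.56 to 1.38, is wide and holds both 0 and the difference seen for Mgll.

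Lipe, the gene of hormone-sensitive lipase, gave dim signals in these livers. Its signal was 6.72, 7.67, 6.04, 6.02 and 6.64 with PM2.5, 6.38, 6.43, 6.32, 6.25 and 6.18 with metformin and 5.92, 7.22, 7.25, 7.61 and 7.14 in the combined mice, against 6.03, 6.20, 6.66, 6.05 and 5.56 in filtered air. Above every filtered-air mouse lay 4 of 5 combined mice, and combined mouse 1 lay within the filtered-air range. The metformin mice kept within 0.25 of one another.

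Lipe averaged 7.03 ± 0.65 in the combined group and 6.10 ± 0.40 in filtered air (SD, n = 5 each), a rise of 0.93 ± 0.29 (1.90-fold, adjusted p = 0.017). The call was lost without combined mouse 4 (0.78, adjusted p = 0.0566), without filtered-air mouse 5 (0.79, adjusted p = 0.0518), with array weights (0.72, adjusted p = 0.0619), with the negative-control median as a covariate (0.56, adjusted p = 0.347) and without combined arrays 2 and 4 (0.67, adjusted p = 0.152). All 20 Lipe signals lay above the negative-control median of their array and none above its 95th percentile. With PM2.5 alone Lipe differed from filtered air by 0.52 ± 0.29 (adjusted p = 0.3) and with metformin alone by 0.21 ± 0.29 (adjusted p = 0.743). The combined group differed from metformin by 0.71 ± 0.29, which did not pass (adjusted p = 0.0961) until combined mouse 1 was left out (0.99, adjusted p = 0.0128).

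Lipe is abundant in fat cells, so fat cell markers were read beside it. Adipoq (adiponectin) lay between 2.42 and 3.65 and below the negative-control median on all 20 arrays. Of 8 adipocyte markers 6 were on the array, 2 of them above the negative-control 95th percentile and 3 at or below its median in each group. Their summed signal on the log2 scale was 17.05 to 17.72 in the combined group and 17.39 to 17.81 in filtered air. Fabp4 averaged 10.58 in filtered air, so this sum comes mainly from the other bright marker and does not measure fat cell content. Retn (resistin) fell by 1.53 ± 0.45 (adjusted p = 0.0111) and Fabp4 by 0.98 ± 0.24 (adjusted p = 0.00364) in the combined group relative to filtered air. Both calls were lost without combined arrays 2 and 4 and with the negative-control covariate. The part of fat cells in the Lipe difference was not tested.

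Mgll encodes the lipase of the last step, which also degrades the endocannabinoid 2-arachidonoylglycerol. Its signal was 11.17, 11.75, 10.65, 10.14 and 11.47 with PM2.5, 10.71, 11.20, 12.25, 11.61 and 11.34 with metformin and 11.18, 10.68, 11.44, 11.48 and 11.84 in the combined mice, against 10.06, 10.71, 10.66, 10.32 and 10.32 in filtered air. Metformin mice 2 to 5 and 4 of 5 combined mice lay above every filtered-air mouse, and the PM2.5 mice spread across both ranges.

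Mgll averaged 11.32 ± 0.43 in the combined group and 10.42 ± 0.27 in filtered air (SD, n = 5 each), a rise of 0.91 ± 0.29 (1.88-fold, adjusted p = 0.0171). The call held in all 20 fits that left out 1 mouse and without combined arrays 2 and 4, and was lost with the negative-control median as a covariate (0.88, adjusted p = 0.15). With metformin alone the difference from filtered air was 1.01 ± 0.29 (2.01-fold, 95% interval 0.42 to 1.60), just short of the threshold (adjusted p = 0.0539). It passed in 9 refits, which included the fit of the metformin and filtered-air arrays alone (adjusted p = 0.0356) and the fit without metformin mouse 1 (1.19, adjusted p = 0.0285). With PM2.5 alone it was 0.62 ± 0.29 (adjusted p = 0.2). The combined and metformin groups differed by -0.10 ± 0.29 (95% interval -0.69 to 0.49, adjusted p = 0.854).

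**Figure D2:**
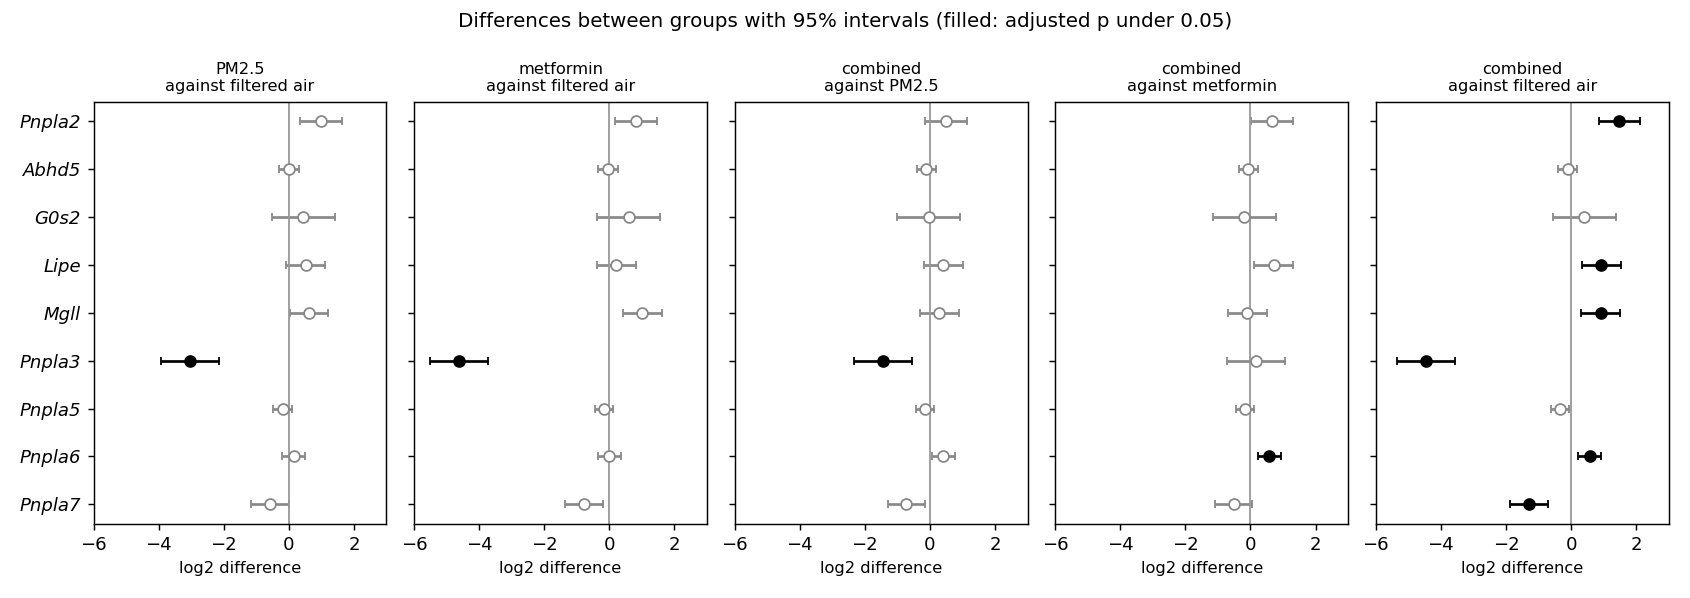
Log2 difference between groups for the 9 measured genes (rows) in 5 comparisons (panels), with 95% intervals from the limma fit, n = 5 mice per group. Filled points have an adjusted p under 0.05 over all genes tested, and Pnpla5 is from the fit without the filter on dim genes. Pnpla3 is far left of 0 in the 3 comparisons against filtered air, and Pnpla2, Lipe, Mgll and Pnpla6 are right of 0 and filled in the combined group against filtered air.

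The lysophospholipase genes moved in opposite directions in the combined group relative to filtered air, Pnpla6 up and Pnpla7 down. Pnpla7 had 13.56, 14.08, 14.41, 14.42 and 14.24 with PM2.5, 13.41, 13.02, 14.33, 14.51 and 14.40 with metformin and 13.58, 13.07, 13.57, 12.77 and 14.12 in the combined mice, against 14.44, 15.10, 14.54, 14.50 and 14.98 in filtered air. All 5 PM2.5 and all 5 combined mice lay below the lowest filtered-air mouse, as did 4 of 5 metformin mice. The metformin group split into mice 1 and 2 at 13.41 and 13.02 and mice 3 to 5 above 14.3.

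Pnpla7 averaged 13.42 ± 0.52 in the combined group and 14.71 ± 0.30 in filtered air (SD, n = 5 each), a fall by 1.29 ± 0.28 (2.45-fold lower, adjusted p = 0.0013). It kept this call in all 20 fits that left out 1 mouse and without combined arrays 2 and 4, and lost it with the negative-control covariate (-0.87, adjusted p = 0.113). PM2.5 alone gave -0.57 ± 0.28 (adjusted p = 0.231) and metformin alone -0.77 ± 0.28 (adjusted p = 0.131). The combined group differed from PM2.5 by -0.72 ± 0.28, which did not pass (adjusted p = 0.0961), and passed without combined mouse 5 (-0.90, adjusted p = 0.0293). From metformin it differed by -0.52 ± 0.28 (adjusted p = 0.215).

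Pnpla6, which encodes neuropathy target esterase, had 6.21, 6.53, 6.19, 6.27 and 6.35 with PM2.5, 6.01, 6.11, 6.24, 6.17 and 6.21 with metformin and 6.43, 7.08, 6.50, 6.64 and 6.99 in the combined mice, against 6.42, 5.46, 6.45, 6.33 and 6.11 in filtered air. All 5 combined mice lay above every metformin mouse, and 4 of 5 lay above every filtered-air mouse. Filtered-air mouse 2, at 5.46, was the lowest of all 20.

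Pnpla6 averaged 6.73 ± 0.29 in the combined group, 6.15 ± 0.09 with metformin and 6.16 ± 0.41 in filtered air (SD, n = 5 each). It rose by 0.58 ± 0.17 relative to metformin (1.49-fold, adjusted p = 0.0234) and by 0.57 ± 0.17 relative to filtered air (1.49-fold, adjusted p = 0.0118). Its mean was 6.31 ± 0.14 with PM2.5 (SD, n = 5), and the combined group differed from that by 0.42 ± 0.17 (adjusted p = 0.113). Neither PM2.5 alone (0.15 ± 0.17, adjusted p = 0.628) nor metformin alone (-0.01 ± 0.17, adjusted p = 0.989) differed detectably from filtered air. The signals lay above the negative-control median and below the 95th percentile on all 20 arrays, and combined mice 2 and 5 had the highest values. Without combined arrays 2 and 4 the difference from filtered air was 0.48 (adjusted p = 0.0758) and that from metformin 0.49 (adjusted p = 0.14), and without combined mouse 2 alone the difference from metformin was 0.49 (adjusted p = 0.0698). With the negative-control covariate these differences were 0.46 (adjusted p = 0.186) and 0.53 (adjusted p = 0.0735), and the first was also lost in the fit of its 2 groups alone (adjusted p = 0.0515) and the other with array weights (0.45, adjusted p = 0.0904).

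Pnpla5, a close relative of Pnpla3 that encodes a droplet lipase, gave no signal above background. Its values were 2.46 to 3.06 with PM2.5, 2.66 to 3.13 with metformin and 2.43 to 2.78 in the combined group, against 2.72 to 3.19 in filtered air, and all lay below the negative-control median of their array. In RefSeq it lies on chromosome 15 near Pnpla3, with 2 predicted genes starting between them. In the fit without the filter none of its differences passed (adjusted p 0.0813 to 0.991).

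Counted over the 8 tested members, 1 fell with PM2.5 relative to filtered air (Pnpla3), where 5.17% of all tested genes passed in either direction, 2.67% higher and 2.5% lower. With metformin 1 fell (Pnpla3), where 3.15% of tested genes passed, 1.26% higher and 1.89% lower. Combined treatment relative to PM2.5 gave 1 fall (Pnpla3), where 11.7% passed, 6.95% higher and 4.73% lower. Relative to metformin, 1 rose (Pnpla6), where 16.3% passed, 9.69% higher and 6.63% lower. Relative to filtered air, 6 of 8 passed in the combined group: Pnpla2, Lipe, Mgll and Pnpla6 rose and Pnpla3 and Pnpla7 fell, where 34.9% of tested genes passed, 18.7% higher and 16.2% lower.

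**Figure D3:**
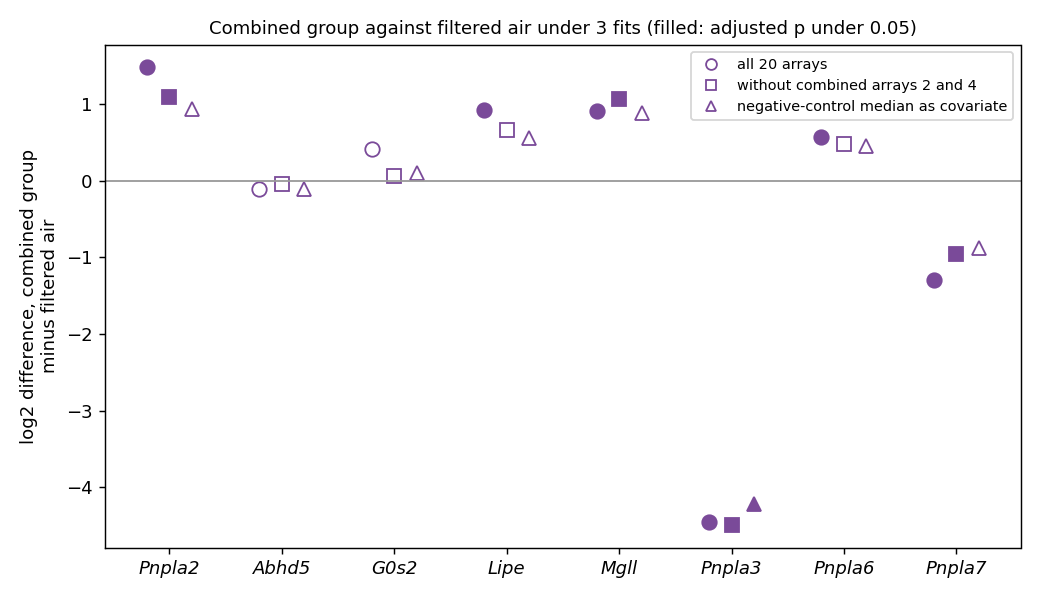
Log2 difference of the 8 tested members between the combined group and filtered air (vertical axis) under 3 fits: all 20 arrays (circles), without combined arrays 2 and 4 (squares), and with the negative-control median of each array as a covariate (triangles). Filled symbols have an adjusted p under 0.05. Of the 6 filled circles, 4 squares and 1 triangle (Pnpla3) stay filled, and each of these 6 members keeps its direction.

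Against filtered air, 6 members passed in the combined group on all arrays, 4 without combined arrays 2 and 4 (Pnpla2, Pnpla3, Pnpla7 and Mgll) and 1 with the negative-control median as a covariate (Pnpla3). All tested genes shifted as well, with 34.9%, 21.5% and 8.9% passing under the same 3 fits. The combined group holds the arrays with the highest negative-control medians, so the covariate and the group in part move together.

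Some markers of other liver cells passed in the combined group. Of all tested genes, 11.7% passed there relative to PM2.5 (4.73% lower) and 16.3% relative to metformin (6.63% lower). Relative to filtered air 34.9% passed (16.2% lower, 18.7% higher). Calls of the hepatocyte, cholangiocyte and stellate cell lists against filtered air were near or under that share. Of 7 macrophage and Kupffer cell markers on the array, 6 fell in the combined group relative to PM2.5, 1 relative to metformin and 4 relative to filtered air, with Adgre1 (F4/80) at -1.28 ± 0.30 relative to filtered air (adjusted p = 0.00263). Without combined arrays 2 and 4 the counts of falls were 1, 0 and 2, and with the negative-control covariate they were 0, 0 and 0. Of the 7 markers, 1 rose relative to filtered air under each of these alternatives. Their summed signal on the log2 scale was 10.39 to 13.96 in the combined group, against 13.55 to 14.26 with PM2.5, 12.77 to 13.16 with metformin and 13.05 to 14.09 in filtered air. Of 6 endothelial markers 3 fell in the combined group relative to PM2.5, with Pecam1 at -0.77 ± 0.18 (adjusted p = 0.00917), and 0 passed relative to filtered air. Relative to metformin Stab2 rose by 1.11 ± 0.19 (adjusted p = 0.00116), a call that held under both alternatives, while the 3 falls relative to PM2.5 were lost under both. Against filtered air Stab2 fell with metformin alone (-0.75 ± 0.19, adjusted p = 0.0364), and Kdr rose with PM2.5 alone (0.54 ± 0.16, adjusted p = 0.0458). With the covariate 0 endothelial markers passed in these comparisons of a single treatment. Of 5 tested stellate cell and fibroblast markers 2 fell in the combined group relative to filtered air, Lrat by 1.64 ± 0.39 (adjusted p = 0.00286) and Dcn by 0.43 ± 0.14 (adjusted p = 0.0208), and relative to metformin Lrat fell by 1.46 ± 0.39 (adjusted p = 0.0156) and Reln rose by 0.60 ± 0.18 (adjusted p = 0.0288). The Lrat fall relative to filtered air held without combined arrays 2 and 4 and was lost with the covariate, the Reln rise held under both, and the Dcn fall and the Lrat fall relative to metformin were lost under both. Of 3 tested adipocyte markers Fabp4 and Retn fell in the combined group relative to filtered air, and both calls were lost under both alternatives. Of 3 tested cholangiocyte markers Krt7 fell by 0.84 ± 0.16 in the combined group relative to filtered air (adjusted p = 0.000353), and 1 fall of this list stayed under both. Krt7 also fell with metformin alone (-0.67 ± 0.16, adjusted p = 0.0208), and Sox9 rose with PM2.5 alone (0.87 ± 0.24, adjusted p = 0.0422). With the covariate the metformin fall was lost, and 1 rise of this list stayed with PM2.5. Of 8 hepatocyte markers Hnf4a rose by 0.59 ± 0.14 in the combined group relative to filtered air (adjusted p = 0.00352). That list kept 1 rise without combined arrays 2 and 4 and 0 with the covariate. The part of these markers in the member differences was not tested. The acinar marker Cela1 lay below the negative-control median on all 20 arrays.

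Mice of one group differed from one another in several members at once. Metformin mouse 3 was the highest of its group for Pnpla2, Mgll, G0s2 and Abhd5, and PM2.5 mouse 4 was the lowest of its group for Pnpla2, G0s2, Lipe and Mgll while it was the highest for Pnpla3. Over the 20 mice, deviations from the group means were correlated for the 28 pairs of tested members with permutation tests. The strongest was Pnpla2 with Lipe (Pearson r = 0.58, permutation p = 0.00639, Spearman rho = 0.64, permutation p = 0.00549), and r was 0.57 without the 2 mice farthest from the median. None of the 28 pairs passed after Benjamini-Hochberg adjustment (lowest adjusted p = 0.179 for r and 0.154 for rho).

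Genes whose log2 signal ran most like a member over all 20 arrays are given as a description, with no test, since these arrays share group differences. For Pnpla3 these were Pxdc1 (r = 0.94), Acaca, the acetyl-CoA carboxylase of fatty acid synthesis (r = 0.94), and Chrna4 (r = 0.92). For Pnpla2 they were Cluh (r = 0.91), Ccdc6 (r = 0.91) and Rere (r = 0.90). For Pnpla7 they were Tubb2a (r = 0.91), Slc30a10 (r = 0.89) and Anxa5 (r = 0.88), and for Pnpla6 Wwp2 (r = 0.80), Pm20d1 (r = 0.80) and Aldh4a1 (r = 0.79). Within groups, that is for deviations from the group means, r was 0.65 for Pnpla3 with Acaca and 0.85 for Pnpla2 with Cluh. Over all the genes named here it ran from 0.55 (Pnpla6 with Wwp2) to 0.89 (Pnpla7 with Slc30a10). The genes were picked for the highest r on these same arrays, so a high r within groups is in part built in. Pnpla3 lay above the negative-control median on 9 of 20 arrays, which limits its r.

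The genes around the members were read in 5 lists. The first holds SREBP-1c, ChREBP, their partners and regulators and their lipogenic targets. Of its 15 tested genes, 4 fell, 0 rose and 11 did not pass with PM2.5, beside 2.5% of all tested genes lower. The median difference was -0.59 beside 0.02 over all tested genes, and 5 of the 15 differences lay above 0. Acaca fell by 1.79 ± 0.37 (adjusted p = 0.0086), Fasn, the fatty acid synthase gene, by 1.89 ± 0.45 (adjusted p = 0.018) and Mlx, the partner of ChREBP, by 0.59 ± 0.15 (adjusted p = 0.0251). With metformin 9 fell and 0 rose, beside 1.89% of all tested genes lower (median -1.43 beside 0.00 over all tested genes), among them Fasn at -3.75 ± 0.45 (adjusted p = 8.17e-05) and Acly, the ATP citrate lyase gene, at -3.41 ± 0.40 (adjusted p = 8.17e-05).

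Between the treated groups calls of this list ran both ways on all arrays. In the combined group relative to PM2.5, 4 fell and 0 rose, beside 4.73% of all tested genes lower. Elovl6, a fatty acid elongase gene, was at -1.69 ± 0.40 (adjusted p = 0.0101) and Acaca at -1.19 ± 0.37 (adjusted p = 0.0412). Relative to metformin 4 rose and 0 fell, beside 9.69% of all tested genes higher. Among them were Fasn at 1.43 ± 0.45 (adjusted p = 0.0343), Acly at 1.24 ± 0.40 (adjusted p = 0.0375) and Scap, which escorts SREBP, at 0.96 ± 0.20 (adjusted p = 0.00418). Without combined arrays 2 and 4 these counts were 0 relative to PM2.5 and 1 relative to metformin, and the same with the negative-control covariate. Against filtered air 10 fell and 1 rose in the combined group, beside 16.2% of all tested genes lower and 18.7% higher, with Acaca at -2.98 ± 0.37 (adjusted p = 1.4e-05). Without combined arrays 2 and 4, 9 fell and 0 rose, and with the negative-control covariate 6 fell and 0 rose.

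The coat of the lipid droplet and inhibitors of ATGL other than G0S2 made up a list with 11 tested genes. With PM2.5, 2 rose and 0 fell, beside 2.67% of all tested genes higher (median 0.29 beside 0.02 over all tested genes). Plin4, a perilipin, rose by 2.25 ± 0.37 (4.77-fold, adjusted p = 0.00196) and Hilpda, a hypoxia-inducible protein that inhibits ATGL, by 0.90 ± 0.21 (adjusted p = 0.0156). With metformin 0 passed at the adjusted threshold. In the combined group Plin4 rose by 3.09 ± 0.37 relative to filtered air (8.52-fold, adjusted p = 1.08e-05) and by 1.84 ± 0.37 relative to metformin (adjusted p = 0.00316). In these comparisons 34.9% and 16.3% of all tested genes passed, and of the 11 genes of this list only Plin4 did. Its filtered-air mean of 4.56 lay near the negative-control median of 4.41. Hilpda fell by 1.15 ± 0.21 in the combined group relative to PM2.5 (adjusted p = 0.00197), with means of 6.29 in the combined group, 7.45 with PM2.5 and 6.55 in filtered air. With the negative-control covariate that Hilpda difference was -1.02 and did not pass (adjusted p = 0.0606).

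Other hydrolases of neutral lipid (lipoprotein lipases, carboxylesterases and diacylglycerol lipases, 19 tested) held few calls outside the combined group. Daglb, a diacylglycerol lipase gene, rose by 0.66 ± 0.16 with PM2.5 (adjusted p = 0.0229), the 1 call of that comparison, and 0 passed with metformin. Of all tested genes 5.17% passed with PM2.5 and 3.15% with metformin, so 1 of 19 is near the share of all genes. In the combined group relative to filtered air 3 rose and 3 fell, a share near the 34.9% of all tested genes that passed, with Daglb at 1.03 ± 0.16 (adjusted p = 0.000107), Ces2e, a carboxylesterase gene, at -1.08 ± 0.20 (adjusted p = 0.000339) and Ldah, a droplet-associated hydrolase gene, at -0.75 ± 0.18 (adjusted p = 0.00243). With the negative-control covariate 2 rose and 0 fell, and neither Ces2e (-0.73, adjusted p = 0.0542) nor Ldah (-0.30, adjusted p = 0.297) passed. Relative to PM2.5 1 fell (Ces2e, -0.81 ± 0.20, adjusted p = 0.0113), where 11.7% of all tested genes passed. This Ces2e call was lost without combined arrays 2 and 4 (adjusted p = 0.167) and with the covariate (adjusted p = 0.287). Relative to metformin 2 rose and 1 fell on all arrays, where 16.3% of all tested genes passed. Without combined arrays 2 and 4, 1 rose and 0 fell, and with the covariate 1 rose and 1 fell.

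Genes of cAMP, insulin and forkhead signalling, which set the activity and the transcription of the lipases, included at least 1 that rose in each of the 5 comparisons between groups on all arrays. Of 18 tested, 5 rose with PM2.5, beside 2.67% of all tested genes (median 0.36 beside 0.02 over all tested genes), with Irs2, an insulin receptor substrate gene, at 1.06 ± 0.27 (adjusted p = 0.0258) and Adcy6, an adenylyl cyclase gene, at 0.84 ± 0.20 (adjusted p = 0.0173). With metformin 1 rose (Adcy6, 0.84 ± 0.20, adjusted p = 0.0237), beside 1.26% of all tested genes higher. With the negative-control covariate this Adcy6 difference did not pass (0.73, adjusted p = 0.1). In the combined group relative to filtered air 13 rose and 1 fell, beside 18.7% of all tested genes higher (median 0.73 beside 0.01), with Foxo1, a forkhead factor that activates Pnpla2 transcription in mouse cells, at 1.48 ± 0.22 (adjusted p = 5.89e-05) and Insr, the insulin receptor gene, at 1.45 ± 0.18 (adjusted p = 1.13e-05). Without combined arrays 2 and 4, 10 rose, and 8 rose with the negative-control covariate. Relative to PM2.5 5 rose, 1 without combined arrays 2 and 4 and 1 with the covariate, and relative to metformin 5 rose, 2 without those arrays and 4 with the covariate. Of all tested genes on all arrays, 6.95% were higher relative to PM2.5 and 9.69% relative to metformin.

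PPAR-alpha, a nuclear receptor activated by fatty acids, and its targets gave 16 tested genes. With PM2.5 5 rose, beside 2.67% of all tested genes higher (median 0.58 beside 0.02), and with metformin 4 rose, beside 1.26% (median 0.42 beside 0.00). In the combined group relative to filtered air 6 rose, beside 18.7% (median 0.15 beside 0.01). Cpt1a, the gene of the mitochondrial entry step for fatty acids, rose by 1.08 ± 0.23 with PM2.5 (adjusted p = 0.00991), 1.38 ± 0.23 with metformin (adjusted p = 0.0019) and 1.86 ± 0.23 in the combined group (adjusted p = 1.32e-05). Angptl4, an inhibitor of lipoprotein lipase, rose by 2.46 ± 0.38 with PM2.5 (adjusted p = 0.00138), 1.94 ± 0.38 with metformin (adjusted p = 0.00708) and 1.60 ± 0.38 in the combined group (adjusted p = 0.00275). Pdk4, which spares glucose when fat is burned, fell by 2.66 ± 0.41 in the combined group relative to PM2.5 (adjusted p = 0.000742), while Cpt1a rose by 0.78 ± 0.23 (adjusted p = 0.0334). Relative to metformin Acadm, a gene of mitochondrial fatty acid oxidation, fell by 0.65 ± 0.20 (adjusted p = 0.0279). Without combined arrays 2 and 4 and with the negative-control covariate the Pdk4 call held, and the Cpt1a difference from PM2.5 (adjusted p = 0.172 and 0.346) and the Acadm difference from metformin (adjusted p = 0.314 and 0.125) did not pass.

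**Figure D4:**
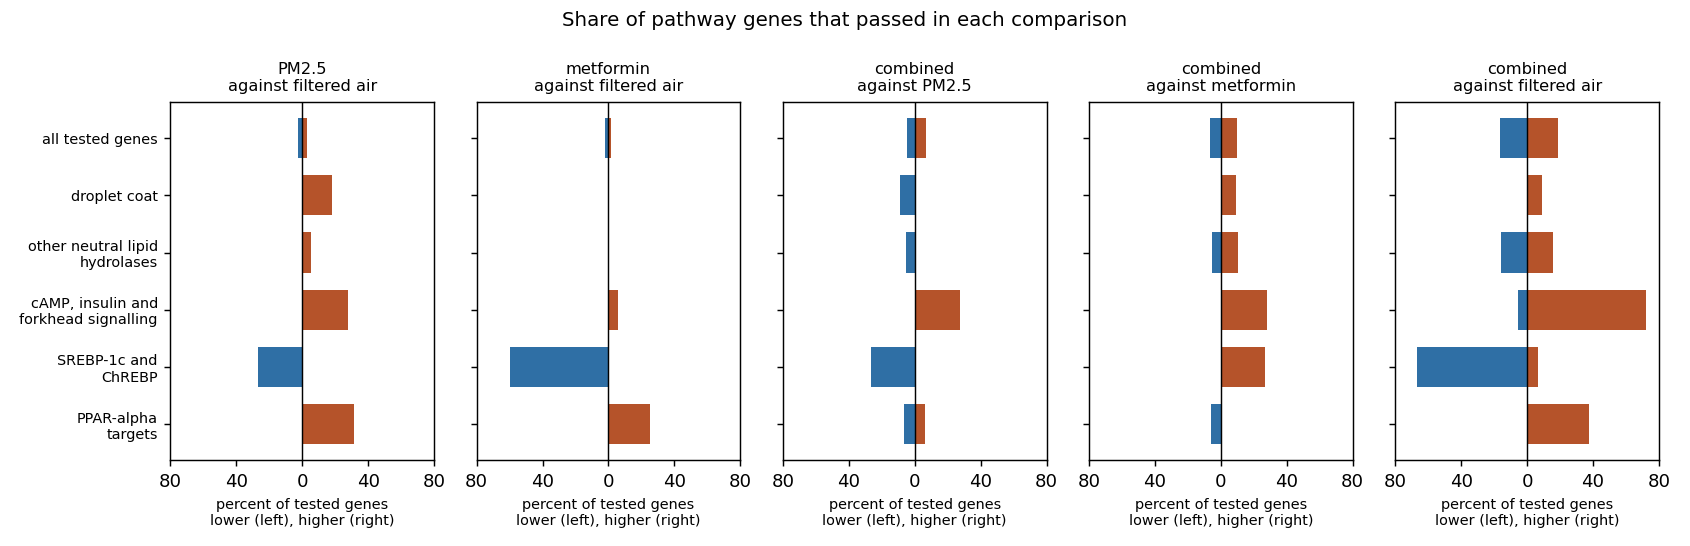
Percent of tested genes that were lower (bars to the left) or higher (bars to the right) in 5 comparisons, for all 11844 tested genes and for 5 lists of 11 to 19 tested genes around the lipases. Lower calls of the SREBP-1c and ChREBP list reach 9 of 15 with metformin and 10 of 15 in the combined group against filtered air, and higher calls of the signalling list reach 13 of 18 in the combined group against filtered air.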

How the data were processed

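RNA of 20 livers (4 groups of 5 mice) was read on single-channel Affymetrix arrays, 1 per mouse. The deposited values are log2 signals of probe sets, from Affymetrix Expression Console per the submitters' processing notes. Its version, summary method and genome build are not given in the sources used here. The probe set identifiers do not belong to the array type that the design text names, so genes were taken from the platform annotation that lists these identifiers. Of 28846 probe sets, 6640 controls were left out, and of the other 22206, 19572 had 1 gene, 0 several and 2634 none. Where a gene had several probe sets (55 genes) the brightest was used. A filter removed genes whose mean did not exceed the 40th percentile (log2 4.05) and kept 11844. The median of the 5222 negative-control probe sets averaged 4.49, above that filter, so tested genes can lie at background. Arrays carry no read depth, and their number limits the precision.

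limma 3.58.1 in R 4.3.3 fitted 4 group means with moderation by eBayes (degrees of freedom 5.68 prior, 16 residual), with 6 two-sided comparisons including the interaction, adjusted by Benjamini-Hochberg over all tested genes. The script was tested on simulated data. The labels do not say whether mice shared cages or litters, so p-values measure the spread between these samples, part of which may be technical. Member pairs used 100000 permutations. Promoters came from RefSeq (GRCm38.p6), with a window for 10 of 10 members. The members, lists and tests were chosen with earlier results of these data known. Named genes are the members, up to 3 genes with the lowest p among those called of each list and comparison, the 3 genes most like each of 4 members, and 6 defining markers. Alternatives were other filters (none, 60th percentile), median centring, quantile normalization, averaged probe sets, fits of the compared groups alone, trend and robust eBayes, array weights, a negative-control covariate, leaving out combined arrays 2 and 4, and leaving out each mouse in turn.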

Additional observations from a re-analysis of the deposited data

Results flagged for a closer look

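In 3 of 36 groups tested (9 genes in 4 groups of 5 mice) 1 mouse stood apart by a gap of more than 0.71 of its group's range, where chance gives about 1 in 20. Pnpla2 was 12.35 in metformin mouse 3, and the next mouse of that group was at 11.09. G0s2 was 12.77 in combined mouse 4, and the next was at 11.21. Lipe was 5.92 in combined mouse 1, and the next was at 7.14. The interaction test of Pnpla3 passed with a value of 3.19 (adjusted p = 0.03). Both metformin-treated groups lay at background, so this call cannot show whether metformin acted differently under PM2.5.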

How the results depend on the processing

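Member differences were refitted under 30 settings, 20 of which left out 1 mouse. Of 1426 refitted differences, 1372 kept their side of the threshold, 35 lost a call, 19 gained one and 0 called differences turned direction, and 41 uncalled differences changed sign without a call. Pnpla3 kept its calls against filtered air in every setting in which it was tested. At the 60th percentile filter Pnpla3 was left out as dim, so the count of members called was 0 with PM2.5 against filtered air, 0 for the combined group against PM2.5 and 0 for the interaction. Fits of the compared groups alone called 2 members with PM2.5 and 2 with metformin against filtered air, and 0 in the combined group against PM2.5. Array weights called 2 and 2 against filtered air with PM2.5 and metformin, and 0 in the combined group against metformin. Trend and robust eBayes called 0 in the combined group against PM2.5 and 0 for the interaction. The negative-control covariate called 0 in the combined group against PM2.5, 0 against metformin and 1 against filtered air. Leaving out combined arrays 2 and 4 called 2 with PM2.5, 2 with metformin, 0 in the combined group against PM2.5, 0 against metformin and 0 for the interaction. Leaving out 1 mouse gave 1 to 2 members with PM2.5, 1 to 2 with metformin, 0 to 2 for the combined group against PM2.5, 0 to 3 against metformin, 5 to 6 against filtered air and 0 to 1 for the interaction. The causes of these changes were not tested, apart from the filter. Counts over all tested genes moved too. With PM2.5 against filtered air 612 genes passed, 1376 with array weights, 938 without combined arrays 2 and 4 and 208 to 759 without 1 mouse. With metformin the counts were 373, against 854 with array weights, 147 with the covariate and 157 to 487 without 1 mouse. The combined group against PM2.5 gave 1383, and 509 in the fit of those groups alone, 79 with the covariate, 206 without its arrays 2 and 4 and 637 to 2143 without 1 mouse. Against metformin it gave 1933, and 1021, 1009, 499 and 1138 to 2407 in the same order. Against filtered air it gave 4136, and 1054 with the covariate, 2544 without arrays 2 and 4 and 3394 to 4338 without 1 mouse. The interaction gave 22, and 108 with array weights, 44 with the covariate, 10 without arrays 2 and 4 and 7 to 289 without 1 mouse. The list and marker results under the covariate and without arrays 2 and 4 were chosen after seeing the data. Signal over background limits Pnpla3, Pnpla5, Pnpla6 and Lipe.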
